A study of Rattus norvegicus with 12 samples.

Results

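The B cell and plasma cell genes described here are 9 genes chosen by name: Cd79a, Cd79b, Ms4a1, Cd22, Cr2, Blk, Pax5, Tnfrsf13c and Mzb1. All 9 were listed in each of the 3 deposited expression tables, out of 16957 genes common to those tables. They were followed in the lungs of 12 rats, all given a single subcutaneous dose of 60 mg/kg monocrotaline (MCT), a plant toxin that injures the pulmonary vessels and causes pulmonary hypertension, and all labelled as 9 weeks old. By osmotic minipump, 3 rats received the vehicle phosphate-buffered saline (PBS), 3 received 1 mg/kg/day of AngII, the natural agonist of the angiotensin II type 1 receptor (AT1R), 3 received 14.4 mg/kg/day of TRV023, an AT1R agonist biased toward β-arrestin signalling, and 3 received 10 mg/kg/day of losartan, an AT1R blocker. No lung without MCT was analysed here, so every value below is a comparison within injured lungs. The study describes more than 1 pump schedule, and the labels do not say which one these lungs came from.

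B cells recognise antigen through a membrane immunoglobulin that signals through the CD79A and CD79B chains, and coreceptors such as CR2 and CD22 raise or lower the strength of that signal. Pax5 is the transcription factor that holds cells in the B cell lineage, and it is switched off when a B cell becomes an antibody-secreting plasma cell, whereas Mzb1 is an endoplasmic reticulum protein that helps assemble immunoglobulin in secreting cells. In the lung these cells lie scattered in the tissue or gather around airways and vessels in lymphoid follicles, and such follicles are known from lungs with pulmonary hypertension. In whole lung RNA, fewer B cells and less RNA per B cell cannot be told apart. In these lungs all 8 members with enough reads for a test were higher with AngII than with TRV023 or losartan. The medians were 1.04 and 0.78 on the log2 scale. None of the 8 passed an adjusted p of 0.05 in edgeR in any comparison. Both comparisons share the AngII lungs, and the members moved together from lung to lung. Without Los_964 the median against losartan was 0.37, with 7 of 8 positive. Of 22 T cell genes tested, 21 were also higher with AngII than with TRV023. In 1 of the 8 members, Pax5, every AngII lung was above every vehicle lung, as in 4.96% of all genes.

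The promoter windows of 4 of the 9 genes were matched in RefSeq, and all 4 matched windows are shown, so that the sequence ahead of these B cell genes can be set beside their levels. Each is the 250 bases before the gene start in the GRCr8 build, 5′ to 3′ along the gene, with every GGAA or TTCC in capitals, since GGAA is the core bound by ETS factors such as Spi1 and SpiB that act in B cells.
Cd79a, chr1:89621210-89621459, plus strand: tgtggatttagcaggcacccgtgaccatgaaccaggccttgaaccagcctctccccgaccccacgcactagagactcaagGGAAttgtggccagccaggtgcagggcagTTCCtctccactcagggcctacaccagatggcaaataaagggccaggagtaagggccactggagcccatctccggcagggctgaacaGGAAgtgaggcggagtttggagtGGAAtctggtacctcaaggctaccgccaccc
Cd22, chr1:95259731-95259980, minus strand: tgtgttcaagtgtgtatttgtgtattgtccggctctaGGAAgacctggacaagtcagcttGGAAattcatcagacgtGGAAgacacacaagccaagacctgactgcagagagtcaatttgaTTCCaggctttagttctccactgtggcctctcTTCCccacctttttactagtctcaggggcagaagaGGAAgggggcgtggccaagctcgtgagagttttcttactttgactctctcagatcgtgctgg
Cr2, chr13:109244507-109244756, minus strand: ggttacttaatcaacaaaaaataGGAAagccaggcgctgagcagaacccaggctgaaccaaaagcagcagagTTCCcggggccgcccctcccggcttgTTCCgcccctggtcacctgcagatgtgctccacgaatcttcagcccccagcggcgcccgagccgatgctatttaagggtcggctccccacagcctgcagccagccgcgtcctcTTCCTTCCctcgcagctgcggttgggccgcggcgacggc
Tnfrsf13c, chr7:115618648-115618897, minus strand: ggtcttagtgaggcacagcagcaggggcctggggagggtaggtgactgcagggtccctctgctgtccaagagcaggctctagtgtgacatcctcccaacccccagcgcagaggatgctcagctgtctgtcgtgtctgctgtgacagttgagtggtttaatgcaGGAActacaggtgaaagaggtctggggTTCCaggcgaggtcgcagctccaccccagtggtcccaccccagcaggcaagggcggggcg
Counting both strands, the GGAA core occurred 4 times in the Cd79a window, 6 times in that of Cd22, 5 times in that of Cr2 and 2 times in that of Tnfrsf13c. At least 1 such core was present in 93.2% of all 33469 RefSeq promoter windows of this length, at least 2 in 77.4%, at least 4 in 34.7%, at least 5 in 19% and at least 6 in 9.27%. The octamer ATGCAAAT, bound by the Oct factors with the coactivator Pou2af1, occurred in 1.56% of all windows and in none of the 4. The letters CCCNNGGG, a core bound by Ebf1, occurred in 10.8% of all windows and in none of the 4. Adjoining cores, as in the Cr2 window, were each counted.

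The levels are given in FPKM (fragments per kilobase of gene length, scaled to the counted reads of the library), which allows genes to be compared. Counted reads ranged from 16106337 to 20096877 per lung. Averaged over the 12 lungs, Mzb1 was the most abundant, at 13.9 ± 6.42 FPKM (SD, n = 12), and Cd79b was next, at 13.2 ± 7.19 FPKM. Mzb1 exceeded Cd79b in 8 of 12 lungs, so these neighbours did not separate. Pax5 at 5.97 ± 4.24 FPKM lay below Cd79b in 12 of 12 lungs and above Ms4a1, at 3.34 ± 2.04 FPKM, in 11 of 12. Ms4a1 and Cd22, at 2.64 ± 1.10 FPKM, did not separate, with Ms4a1 higher in 7 of 12 lungs. Tnfrsf13c and Blk averaged 1.41 FPKM each, with Tnfrsf13c higher in 6 of 12. Cr2 was lower than Blk in every lung and averaged 0.573 ± 0.628 FPKM.

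Cd79a stood apart at the bottom of that order. The entry of this name had 0 or 1 read in each of the 12 lungs, 7 reads in all, where 3 reads would have been 0.401 to 0.501 FPKM, and it did not pass the filter on low counts. In the tables it is a gene of 372 bases on chromosome 9, from 15698128 to 15700087 on the minus strand, inside the span of Cul9 on the opposite strand. RefSeq places Cd79a on chromosome 1, between Rps19 and Arhgef1, and the other 8 genes are on the same chromosome in RefSeq as in the tables. The deposited tables have 1 gene between Rps19 and Arhgef1, a 654-base gene at 83020660 to 83024667 on the plus strand of chromosome 1, listed as LOC100913063. That name is made from the NCBI gene ID 100913063, which is the ID that RefSeq gives to Cd79a. Its values are therefore set beside those of the 9 genes as the gene with the RefSeq ID of Cd79a, but it is not counted among them, and it was chosen after its values were seen. Beside the empty Cd79a entry on chromosome 9, the gene LOC100910336 has the same length as Rps19, 525 bases, and 977 to 2168 reads per lung.

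LOC100913063 had reads in every lung. It was at 18.9, 17.3 and 37.0 FPKM in the vehicle lungs, 47.7, 48.3 and 40.4 in the AngII lungs, 10.6, 34.4 and 20.9 in the TRV023 lungs, and 20.0, 10.8 and 37.4 in the losartan lungs (in the order Veh_923, Veh_924, Veh_963; Ang2_922, Ang2_931, Ang2_933; Trv_917, Trv_918, Trv_930; Los_925, Los_964, Los_965, here and below). All 3 AngII lungs lay above every lung of the other groups. Its log2 fold change was 1.03 ± 0.29 (SE) for AngII against vehicle, with an adjusted p of 0.338 in edgeR's quasi-likelihood test and 0.0495 in DESeq2.

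The partner chain Cd79b was at 8.67, 11.98 and 15.9 FPKM with vehicle, 31.2, 15.2 and 11.4 with AngII, 4.16, 14.4 and 9.44 with TRV023, and 14.2, 3.85 and 17.9 with losartan. Ang2_922 was the highest of the 12, and the groups overlapped. Cd79b was 1.17 ± 0.53 higher on the log2 scale with AngII than with TRV023 (edgeR adjusted p = 0.442), and 0.77 ± 0.36 higher with AngII than with vehicle (adjusted p = 0.442). Without Ang2_922 these values were 0.70 and 0.31.

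Ms4a1, which encodes the B cell surface protein CD20, was at 2.44, 2.06 and 7.36 FPKM with vehicle, 6.61, 4.01 and 3.22 with AngII, 0.627, 4.18 and 2.46 with TRV023, and 3.51, 0.698 and 2.95 with losartan. The highest value was that of Veh_963 and the lowest were those of Trv_917 and Los_964. The log2 fold change of AngII against vehicle was 0.34 ± 0.51 with all lungs and 1.16 without Veh_963, with an adjusted p of 0.802 and 0.469, and no group separated from another.

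Pax5 was the member whose AngII lungs separated from vehicle. Its levels were 3.92, 4.67 and 7.75 FPKM with vehicle, 14.9, 10.6 and 8.19 with AngII, 0.634, 4.70 and 1.90 with TRV023, and 3.52, 1.58 and 9.16 with losartan. Every AngII lung was above every vehicle and TRV023 lung, while Los_965 reached into the AngII range. The group means were 5.45 ± 2.03, 11.2 ± 3.42, 2.41 ± 2.08 and 4.76 ± 3.94 FPKM (SD, n = 3 each) in the order vehicle, AngII, TRV023, losartan. The log2 fold change of AngII against vehicle was 1.17 ± 0.33 (95% interval 0.41 to 1.93), at an unadjusted p of 0.00719 and an adjusted p of 0.341. Against TRV023 it was 2.36 ± 0.67 (0.91 to 3.81), at an unadjusted p of 0.00391 and an adjusted p of 0.281 in edgeR. DESeq2 gave the same comparison an adjusted p of 0.0229, the only call of a member by any tool, and gave 0.0572 for AngII against vehicle. With each lung left out in turn, the edgeR value stayed between 0.97 and 1.51 against vehicle and between 1.92 and 3.24 against TRV023. An exact permutation test on the FPKM of either pair of groups gave p = 0.1, two-sided, which is the smallest value that 3 lungs against 3 allow.

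Cd22, an inhibitory coreceptor, was at 2.77, 2.37 and 3.77 FPKM with vehicle, 4.58, 4.33 and 2.40 with AngII, 1.60, 2.09 and 2.45 with TRV023, and 2.79, 1.09 and 1.43 with losartan. Ang2_922 and Ang2_931 were above all other lungs, and Ang2_933 was among the TRV023 values. Cd22 was 1.21 ± 0.35 higher on the log2 scale with AngII than with losartan, at an unadjusted p of 0.00407 and an adjusted p of 0.390, and 1.02 ± 0.34 higher with AngII than with TRV023, at an unadjusted p of 0.0113 and an adjusted p of 0.319. In a test of any difference between the 4 groups, Cd22 and Pax5 had unadjusted p values of 0.0143 and 0.0219 and adjusted values of 0.562 and 0.569. That test called 0 members and 0.0192% of all genes at an adjusted p under 0.05, and 7.98% of all genes were under 0.05 before adjustment.

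Cr2, the complement receptor of mature B cells and follicular dendritic cells, spanned the widest range. It was at 0.300, 0.310 and 2.23 FPKM with vehicle, 1.21, 0.526 and 0.277 with AngII, 0.186, 0.312 and 0.0478 with TRV023, and 0.559, 0 and 0.905 with losartan, where the 0 reads of Los_964 allow up to 0.0522 FPKM. Cr2 in Veh_963 was higher than in any other lung, and the groups overlapped. The log2 fold change of TRV023 against vehicle was -2.38 ± 0.96, at an unadjusted p of 0.0375 and an adjusted p of 0.848, and -0.74 without Veh_963, with counts from 3 to 150 behind it.

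The Src family kinase Blk was at 1.50, 0.916 and 2.84 FPKM with vehicle, 1.49, 1.34 and 2.31 with AngII, 0.713, 0.945 and 1.22 with TRV023, and 1.47, 0.668 and 1.50 with losartan. The AngII lungs were above the 3 TRV023 lungs, with a log2 fold change of 0.97 ± 0.47 (adjusted p = 0.477), and overlapped the vehicle lungs, with 0.10 ± 0.48. Tnfrsf13c, the receptor for the B cell survival factor BAFF, was measured from few reads, 1 to 27 per lung. Its levels were 1.0004, 1.22 and 1.54 FPKM with vehicle, 2.13, 1.16 and 2.53 with AngII, 0.113, 2.35 and 1.26 with TRV023, and 0.917, 0.211 and 2.51 with losartan. No difference between groups was detected, and the interval for AngII against vehicle ran from -0.56 to 2.06. The part of read depth in this was not tested.

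Mzb1, the only plasma cell gene of the 9, was at 13.3, 4.79 and 14.9 FPKM with vehicle, 11.9, 21.4 and 21.2 with AngII, 2.19, 21.8 and 14.7 with TRV023, and 14.2, 7.87 and 18.1 with losartan. Trv_918 had the highest value and Trv_917 the lowest. Its log2 fold changes against vehicle were 0.87 ± 0.43 with AngII, 0.21 ± 0.70 with TRV023 and 0.32 ± 0.45 with losartan, none with an adjusted p under 0.05.

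**Figure D1:**
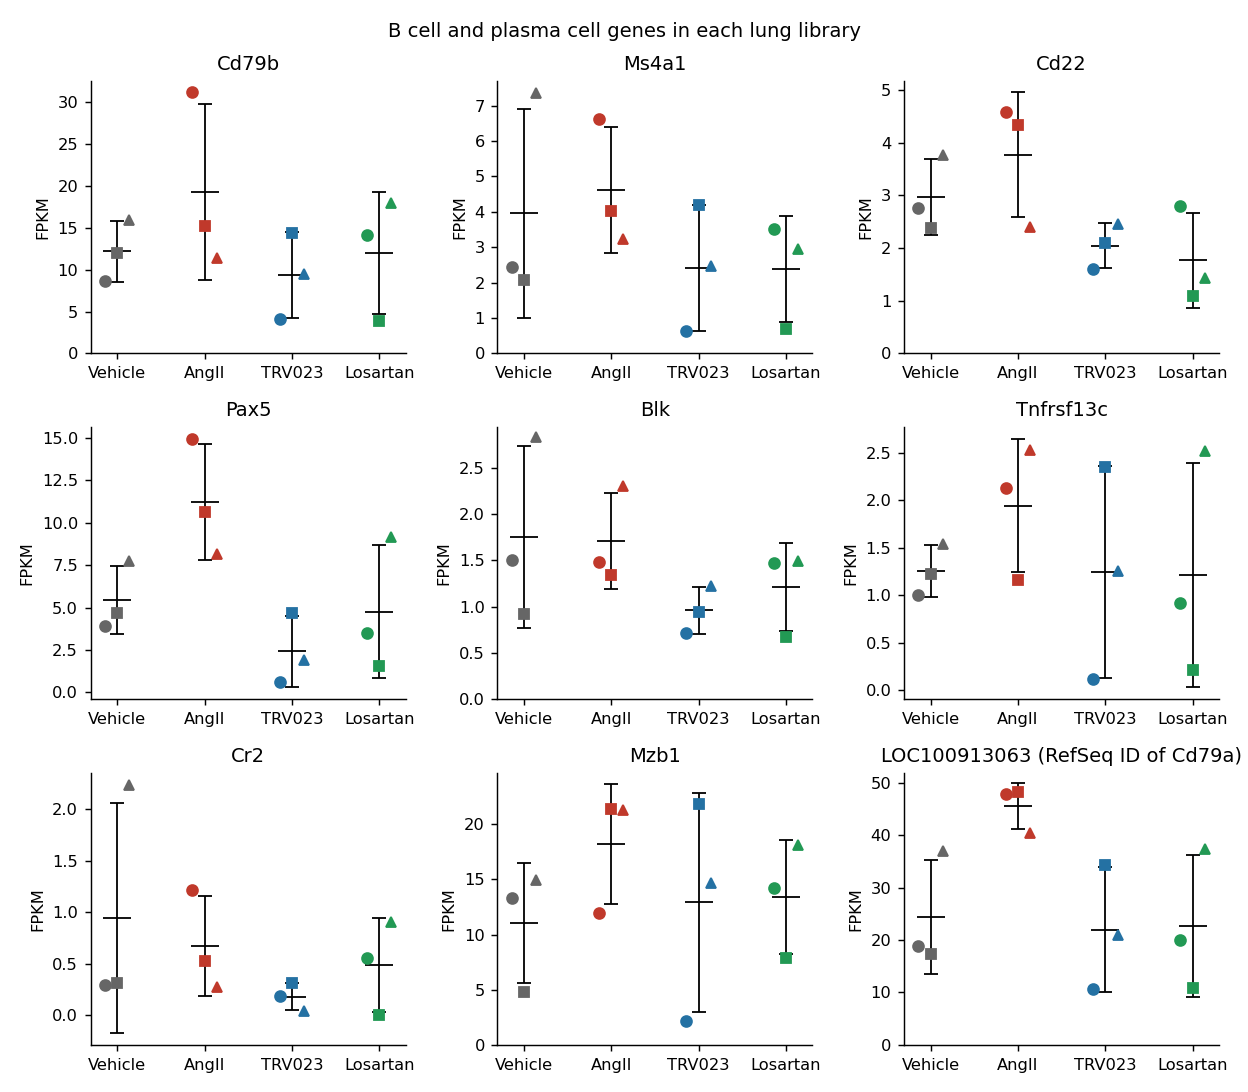
FPKM of 8 of the genes and of LOC100913063, the gene with the RefSeq ID of Cd79a, in each lung (circle, square and triangle are the animals of a group in order of their numbers, bars are mean and SD, n = 3). The Pax5 and LOC100913063 values of the 3 AngII lungs lie above those of all vehicle and TRV023 lungs, while the other panels show overlap with vehicle.

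By comparison, AngII against vehicle gave positive log2 fold changes in 7 of the 8 tested members, all but Cr2, with a median of 0.61 beside -0.02 over all 15059 genes tested. The edgeR test called 0 of 8 members, against 0.0133% of all genes. At an unadjusted p under 0.05 it named 1 of 8, Pax5, against 11.9% of all genes, which is near that background. In 1 of 8 members, again Pax5, the 3 AngII lungs lay above the 3 vehicle lungs, against 4.96% of all genes. The median of the members was 1.09 without Veh_963 and 0.34 without Ang2_922. When counts were scaled to library totals, which moved the median over all genes to -0.16, Blk turned to -0.04, and 6 of 8 were positive.

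TRV023 against vehicle gave negative log2 fold changes in 7 of 8 members, all but Mzb1, with a median of -0.63 beside -0.0016 over all genes. It called 0 of 8 members against 0.00658% of all genes, and Cr2 was the 1 member with an unadjusted p under 0.05 against 5.56% of all genes. The median was -0.24 without Veh_963 and -0.34 without Trv_917.

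Losartan against vehicle also gave 7 of 8 members below 0, with a median of -0.33, but no member reached an unadjusted p under 0.05, against 1.65% of all genes, and the test called 0% of genes. Here 1 lung decided the sign: the median was 0.18 without Veh_963, -0.01 without Los_964 and -0.81 without Los_965. The 3 comparisons share the vehicle lungs, so their values are not independent.

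Of the 6 pairs of groups, the largest median difference was between AngII and TRV023. AngII against TRV023 gave 8 of 8 positive log2 fold changes, from 0.66 for Mzb1 to 2.36 for Pax5, with a median of 1.04 beside -0.01 over 15662 genes. It called 0% of genes in edgeR. Unadjusted p values under 0.05 were found in 3 of 8 members, Pax5, Cd22 and Cd79b, against 10.9% of all genes. In 2 of 8, Pax5 and Blk, the AngII lungs were all above the TRV023 lungs, against 4.34% of genes. DESeq2 called 1 member, Pax5, against 1.36% of genes. All 8 stayed positive whichever AngII or TRV023 lung was left out, and the median then ran from 0.82 to 1.59. Leaving out a vehicle or losartan lung, none of which enters this difference, left the median at 1.04. AngII against losartan also gave 8 of 8 positive values, with a median of 0.78, 1 member (Cd22) under an unadjusted 0.05 against 9.18% of genes, and 0% of genes called. Without Los_964 that median was 0.37, with 7 of 8 positive. These comparisons share the AngII lungs. TRV023 against losartan had a median of -0.23, 0 members under an unadjusted 0.05 against 4.55% of genes, and 0% called. The doses differed between the drugs, so these are comparisons of the regimens given.

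**Figure D2:**
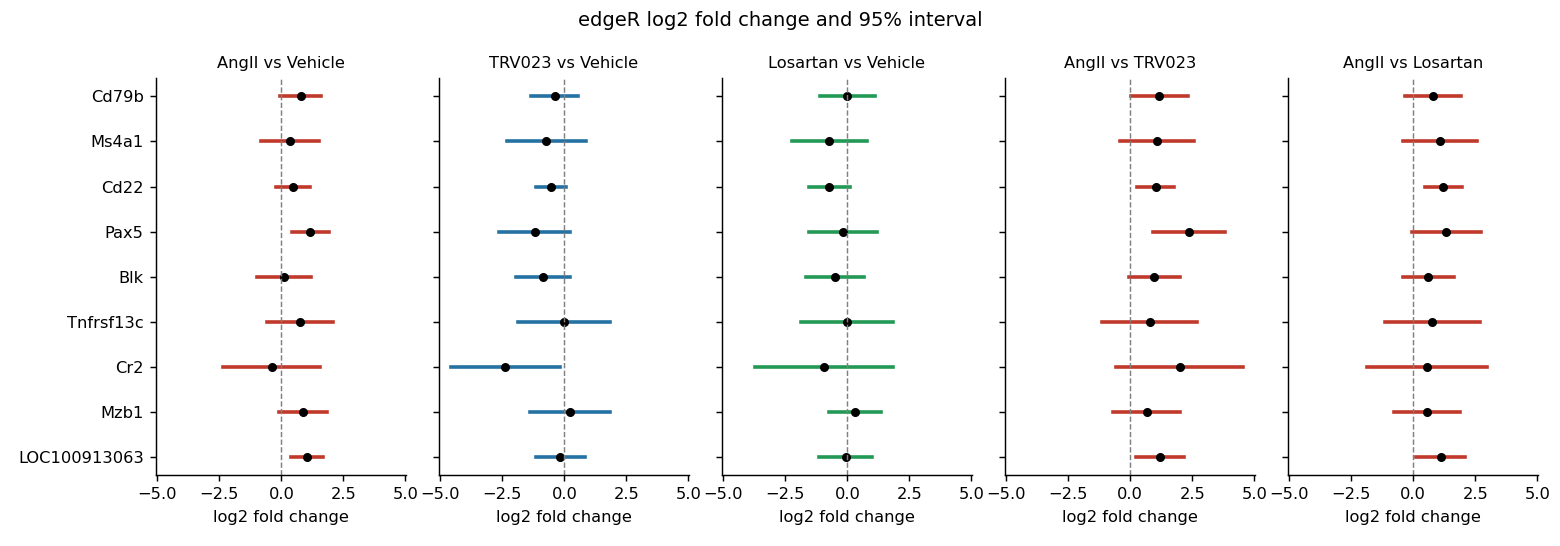
Log2 fold change (points) and 95% interval (lines) from edgeR for each gene in 5 comparisons, with a dashed line at 0. All 8 members lie right of 0 for AngII against TRV023 and against losartan, and most intervals cross 0, the widest being those of Cr2 and Tnfrsf13c.

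In 6 of the 8 tested members most of the variation lay between animals of the same group. The SD within groups was 0.44 to 1.69 on the log2 scale for the 8 members, beside a median of 0.32 over all genes, and Cr2 was at the top end of that range. Between-group differences held 63.3% of the sum of squares for Cd22 and 60.6% for Pax5, but 20.3% for Tnfrsf13c and 20.5% for Mzb1, beside a median of 28.2% over all genes. The members moved together from lung to lung: over the 28 pairs, Pearson's r of log2 CPM (counts scaled to library size) ran from 0.29 for Mzb1 with Cr2 to 0.92 for Cd79b with Ms4a1, with a median of 0.69. After subtracting each group's mean, the median was 0.64. All pairs share the same libraries and their scaling.

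As a mean over the 8 members of standardised log2 CPM, in SD units, the lungs ranged from -1.63 in Trv_917 and -1.46 in Los_964 to 0.91 in Veh_963 and 1.01 in Ang2_922. The other AngII lungs were at 0.74 and 0.62, so the AngII lungs held 3 of the 4 highest places. Every member was below its own mean in Trv_917 and in Los_964, the only lungs of which this was true. These were also the libraries with the fewest counted reads, 16106337 and 17192919, and Ang2_933, at 0.62, had 17240865. The part of read depth in these values was not tested.

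T cell markers varied in the same direction in part. Over the 22 T cell genes measured in the fit, their standardised mean was -0.99 in Trv_917 and -0.88 in Los_964, and 0.94, 1.15 and 0.16 in the AngII lungs. The summed level of the 24 listed T cell genes was 264 to 294 CPM with vehicle, 298 to 412 with AngII, 221 to 338 with TRV023 and 191 to 347 with losartan. Cd5 is on this list and on that of B cell surface genes. The defining marker Cd3e was present in all lungs, at 4.72 to 20.1 FPKM. In AngII against vehicle, 20 of 22 T cell genes were positive with a median of 0.42, 5 of them at an unadjusted p under 0.05, against 11.9% of all genes. In AngII against TRV023, where the B cell genes differed most, 21 of 22 were positive with a median of 0.57, 8 of them at an unadjusted p under 0.05 against 10.9% of all genes. Cd3e itself was 1.04 ± 0.36 higher with AngII than with TRV023 (unadjusted p = 0.0135, adjusted p = 0.331) and 0.79 ± 0.36 higher than with losartan (unadjusted p = 0.0489, adjusted p = 0.542). The part of T cells, or of lymphoid tissue in the piece of lung taken, in the B cell values was not tested. Among lungs where the gene sets parted, Los_965 had high B cell genes, 0.40, with low T cell markers, -0.63.

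**Figure D3:**
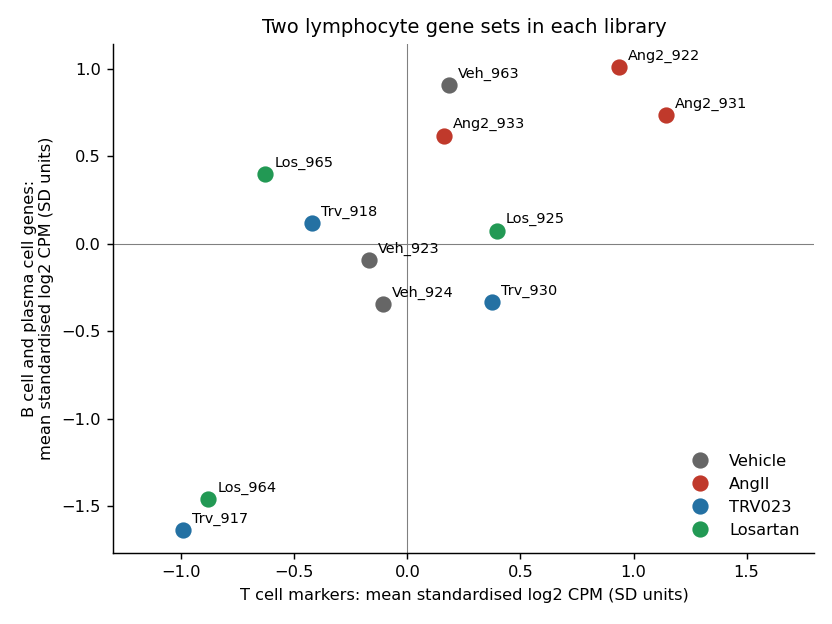
Mean standardised log2 CPM of the 8 B cell and plasma cell genes (vertical) against that of 22 T cell markers (horizontal), both in SD units, 1 point per lung. Trv_917 and Los_964 lie at the lower left, below -1.4 on the vertical axis. The AngII lungs lie above 0 on both axes, as do Veh_963 and Los_925.

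The genes most like the members, out of 13710 with a mean of at least 1 FPKM, included other B cell genes but were not limited to them. By Pearson's r over the 12 lungs with the members' mean, the named genes included Irf4 (0.91), Ccr10 (0.91), Pou2af1 (0.90), Fcer2 (0.89), Amt (0.89), Btla (0.89), RT1-M4 (0.88), Itgad (0.87) and Chd3 (0.86). LOC100913063, left out of this ranking by its type of name, had 0.93. Without Trv_917 and Los_964 the r was 0.82 for Ccr10, 0.77 for Fcer2, 0.72 for Irf4, 0.72 for RT1-M4 and 0.69 for Amt. It was 0.64 for Pou2af1, 0.64 for Itgad, 0.56 for Btla and 0.49 for Chd3. The likeness of these named genes thus rested in part on those lungs, most of all for Btla and Chd3. Pou2af1, the B cell coactivator, was 0.83 ± 0.23 higher with AngII than with vehicle (adjusted p = 0.338).

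Of 110 listed genes that act with the members, 96 were tested in AngII against vehicle. None passed an adjusted p of 0.05 in edgeR, against 0.0133% of all genes. At an unadjusted p under 0.05, 17 were higher and 2 lower, against 11.9% of all genes in both directions together, and the median of the 96 was 0.23. DESeq2 called 5 of them, Ltb, Il21r, Cd37, Fcrl2 and Blnk, against the 1.42% of all genes it called in that comparison. For TRV023 and losartan it called 0. The same unadjusted counts were 2 higher and 4 lower of 95 for TRV023, against 5.56% of all genes, and 0 higher and 1 lower of 94 for losartan, against 1.65%, both near the background. By role, the unadjusted test of AngII against vehicle named 4 of 16 coreceptor and surface genes and 7 of 23 signalling genes. In each of these lists 1 of the named genes was lower. The test also named 2 of 16 transcription factors, 2 of 8 survival genes, 1 of 13 follicle genes and 2 of 17 plasma cell genes. These counts are to be read against the same 11.9% of all genes. The lists are small, so none of these counts is read as exceeding it, and no list was tested as a set. The lists were chosen with earlier results of these data known.

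Among surface genes, AngII against vehicle gave 0.69 for Cd37, a tetraspanin, 0.78 for Fcrl2, 0.69 for Cd72, a coreceptor, and -1.26 for Cd24. In the signalling chain downstream of the CD79 chains, the adaptor Blnk was at 0.72, the phosphoinositide kinase Pik3cd at 0.51 and the kinase Syk at 0.40, whereas Malt1, of the complex that activates NF-κB, was at -1.05. The transcription factor Spi1, which binds the GGAA core shown above and is also made by myeloid cells, was at 0.45. Among survival receptors, Tnfrsf13b was at 1.92 ± 0.73 from 4 to 40 reads, and the cytokine receptor Il21r was at 0.90 ± 0.19 (adjusted p = 0.295 in edgeR and 0.00944 in DESeq2). Of the plasma cell list, Cd27 was at 0.86 and Sec11c, of the signal peptidase, at 0.44. In the whole of that list 12 of 17 genes were above 0 and 5 below, with a median of 0.15. The plasma cell marker Tnfrsf17 was at -0.01 ± 0.86, from 0 to 60 reads per lung, and was chosen after its values were seen. The part of T cells in the Cd27 and Il21r values was not tested. In the early B cell list 3 genes were tested, and Dntt, the polymerase that adds bases at immunoglobulin joints, was at 2.25 ± 0.83. Its unadjusted p was 0.0244 and its adjusted p 0.377 in edgeR. The early B cell genes common to the 3 tables summed to only 1.64 to 1.91 CPM with vehicle and 2.60 to 4.67 with AngII.

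Ltb, a lymphotoxin made by lymphocytes that maintains lymphoid follicles, had the smallest p of the listed genes. It was at 19.4, 21.7 and 22.7 FPKM with vehicle, 44.0, 49.3 and 38.8 with AngII, 19.5, 24.2 and 26.2 with TRV023, and 29.0, 22.7 and 25.7 with losartan. All AngII lungs were above all others. The log2 fold change against vehicle was 1.19 ± 0.15, with an adjusted p of 0.133 in edgeR and 3.31e-07 in DESeq2. Against TRV023 it was 1.06 ± 0.15, with an adjusted p of 0.0691 in edgeR and 2.14e-06 in DESeq2. T cells also make Ltb, and the summed T cell level in those lungs was given above as 298 to 412 CPM. Its part in the Ltb values was not tested. Among the 13 follicle genes tested in AngII against vehicle, Ltb included, 7 were above 0 and 6 below, with a median of 0.20.

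In TRV023 against vehicle the named genes included Ly86 at -0.55, Fcgr2b, the inhibitory Fc receptor, at 0.33, Malt1 at -0.82, Cxcr4 at 0.92 and Cxcl13 at -1.73 ± 0.62. Cxcl13, the chemokine that draws B cells into follicles, was at 2.45, 10.6 and 16.4 FPKM with vehicle, 6.35, 7.58 and 1.23 with AngII, 2.86, 2.11 and 3.93 with TRV023, and 5.59, 0.751 and 0.615 with losartan. It did not follow the B cell genes: Los_965 had the lowest value, with B cell genes above their mean. In losartan against vehicle only Ccr6, a chemokine receptor of B and T cells, was named, at -1.50 ± 0.65. The smallest adjusted p among these genes was 0.699, that of Ly86.

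Antibody transcripts, the main product of plasma cells, were followed next. The tables list 8 immunoglobulin chain genes, and IGJ, the joining chain of secreted IgM and IgA, was followed beside them; Iglon5, a neural gene with a like name, was left out. Together the 9 took 0.101% of counted reads in Trv_917 and 0.910% in Trv_918, and the vehicle lungs ran from 0.130% to 0.604%. Igkc, the kappa light chain, was at 1391, 776 and 3759 FPKM with vehicle, 1305, 2507 and 3299 with AngII, 588, 5435 and 1433 with TRV023, and 1668, 988 and 3453 with losartan. The mu heavy chain, IGH-6, was at 546, 339 and 1190 FPKM with vehicle, 683, 1355 and 1574 with AngII, 274, 1713 and 812 with TRV023, and 847, 418 and 1500 with losartan. The highest and lowest lungs of both genes were animals of the same TRV023 group, as for Mzb1, and the groups overlapped. IGH-6 was 0.95 ± 0.47 higher on the log2 scale with AngII than with vehicle (adjusted p = 0.462), and Igkc 0.41 ± 0.55. Both values depended on single vehicle lungs: IGH-6 was at 0.62 without Veh_924 and 1.60 without Veh_963, and Igkc at 0.025 and 1.28.

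The sum of the 4 gamma heavy chain genes was lowest in Trv_917, at 173 FPKM, and highest in Trv_918, at 2513, as was the mu chain, but the ratio of gamma to mu varied between lungs. IGH-1A was at 220, 109 and 643 FPKM with vehicle, 189, 233 and 277 with AngII, 53.7, 1178 and 80.1 with TRV023, and 109, 53.2 and 302 with losartan. IGG-2A ranged from 75.9 FPKM in Ang2_922 to 1097 in Trv_918, and Ighg3 from 8.57 to 236 within the TRV023 group. The sum of the 4 gamma genes divided by IGH-6 was 0.926, 0.598 and 1.27 with vehicle and 0.422, 0.341 and 0.426 with AngII. It was 0.631, 1.47 and 0.246 with TRV023 and 0.320, 0.493 and 0.541 with losartan. Thus the AngII and the losartan lungs were all below the vehicle lungs in this ratio, with an exact two-sided permutation p of 0.1 in each case, the smallest possible here, and the ratio was examined after its values were seen. The spans of IGG-2A, IGH-1A and Ighg3 on chromosome 6 lie within that of IGH-6, and these constant regions are near-identical in part, so how reads were split between them is uncertain. Of the variable segments, Ighv13-1 had 0 to 179 reads and was 3.67 ± 1.38 higher on the log2 scale with losartan than with vehicle (unadjusted p = 0.0290, adjusted p above 0.99). It had 0, 0 and 22 reads in the vehicle lungs and 23, 57 and 179 in the losartan lungs, so the vehicle level rested on Veh_963, without which the fitted value depends on the prior count. Without Los_965 it was 2.68. Ighv7-1 had 0 to 158 reads. Ighg had at most 31 reads in every lung but Los_925, which had 183.

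**Figure D4:**
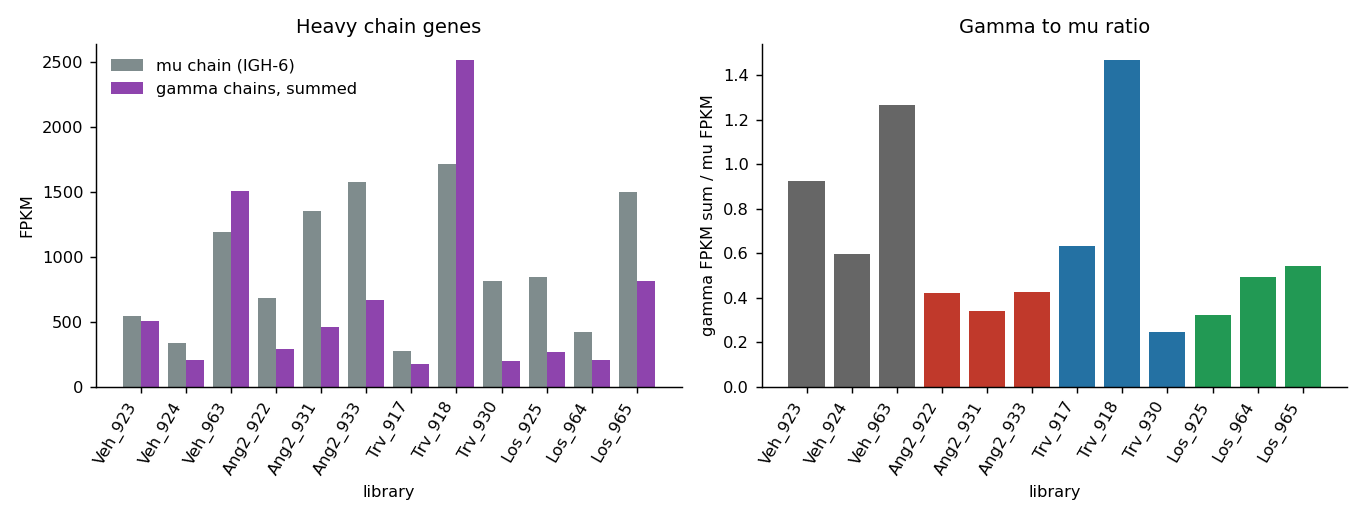
FPKM of the mu chain gene IGH-6 and the sum of the 4 gamma chain genes in each library (left), and their ratio (right, coloured by group: grey vehicle, red AngII, blue TRV023, green losartan). The ratio is 0.341 to 0.426 in AngII lungs and 0.598 to 1.27 in vehicle lungs, and runs from 0.246 to 1.47 within the TRV023 group.

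Markers of other cells in the lung were checked for AngII against vehicle. Ciliated cell genes were all below 0, 10 of 10 with a median of -1.22, neutrophil genes had a median of 0.61, natural killer cell genes 0.19 and macrophage genes 0.13. Plasmacytoid dendritic cell genes had a median of -0.14, follicular dendritic and lymphatic genes -0.11, alveolar type 1 genes -0.11 and alveolar type 2 genes 0.05. The alveolar type 2 marker Sftpc was at 5224 to 16391 FPKM, as in lung. In AngII against TRV023, ciliated cell genes were below 0 in 11 of 11, with a median of -1.35, and alveolar type 2 genes above 0 in 8 of 10, with a median of 0.41. Neutrophil genes had a median of -0.51, alveolar type 1 genes -0.37, follicular dendritic and lymphatic genes -0.27, plasmacytoid dendritic cell genes -0.26, macrophage genes -0.09 and natural killer cell genes -0.10. Sftpc was 0.77 ± 0.34 higher with AngII than with TRV023 (unadjusted p = 0.0438, adjusted p = 0.438), with all AngII lungs above all TRV023 lungs. The part of these cells in the values of the B cell genes was not tested.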

How the data were processed

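RNA from lung tissue of 12 MCT rats (3 per group) was sequenced by a service provider for the authors. The deposited tables give, per gene, read counts and FPKM for the 3 rats of a drug group and the 3 vehicle rats. The authors' FPKM equalled counts per gene length and counted reads within 0.1% for 88.4% to 88.5% of values above 0. No aligner, counting tool, strand setting or genome build is named by the labels, the paper or the files. The tables also hold the authors' fold changes and p-values, which were not used.

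Counts were tested with edgeR 4.0.16 (filterByExpr, TMM, quasi-likelihood F test, Benjamini-Hochberg adjustment over all genes tested, threshold 0.05). Each drug was compared with vehicle in a fit of those 6 libraries, and drugs with each other in a fit of all 12 over the 16957 genes common to the 3 tables. Counted reads were 16106337 to 20096877 per library, and limits from 3 counts cover counting error only. Log2 CPM used a prior count of 2. Alternatives were DESeq2 1.42.0, limma 3.58.1 (voom, or on log2(FPKM + 1) and log2(FPKM + 0.1)), other scalings and filters, and leaving out each library. The tests were checked on simulated counts.

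The 9 genes were chosen by name. The members and all gene lists were chosen with earlier results of these data known. Named beside them were listed genes at an unadjusted p under 0.05 against vehicle, at most 4 per list by smallest p; all immunoglobulin chain genes; the 10 genes most correlated with the members' mean; and genes said to be chosen after their values were seen. Each lung is 1 animal, so p-values measure the spread between animals. Some genes that these rules name are not reported here.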

Additional observations from a re-analysis of the deposited data

How the results depend on the processing

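No paired analysis was possible because the replicate numbers are animal numbers and no group shares one with another. With groups of 3, no single lung was tested as an outlier. The count of members called stayed at 0 in every comparison and alternative run, except that DESeq2 called 1 for AngII against TRV023, Pax5, at a log2 fold change of 2.36. Leaving out 1 library changed no count of calls. It gave medians of the members' log2 fold changes from 0.34 to 1.09 for AngII, -0.85 to -0.24 for TRV023 and -0.81 to 0.18 for losartan against vehicle, 0.82 to 1.59 for AngII against TRV023, 0.37 to 1.25 for AngII against losartan and -0.74 to 0.14 for TRV023 against losartan.

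Single members that changed sign had fold changes that did not pass the test. The cause was not tested. With library totals in place of TMM, Blk was -0.0363 for AngII against vehicle, and Tnfrsf13c was 0.0063 for TRV023 against vehicle and 0.037 for TRV023 against losartan. With limma-voom, Cr2 was 0.093 for AngII against vehicle, Mzb1 -0.031 for TRV023 against vehicle and Ms4a1 -0.085 for TRV023 against losartan. On log2 FPKM, Mzb1 was -0.0694 or -0.14 for TRV023 against vehicle, with pseudocounts of 1 and 0.1. Without Veh_963, Los_964 and Los_965, Cr2 was 1.25 for AngII against vehicle, and Ms4a1 was 0.10 and Tnfrsf13c 0.16 for TRV023 against vehicle. Those fits hold no losartan lung, so they repeat the fits without Veh_963. For losartan the same omission left only Los_925 against Veh_923 and Veh_924. There Cd79b was 0.40, Ms4a1 0.58, Blk 0.23, Cd22 0.063 and Cr2 0.81.

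With 1 library left out, the ranges that crossed 0 were, for AngII against vehicle, -0.21 to 0.64 for Blk and -1.05 to 1.25 for Cr2. For TRV023 against vehicle they were -1.33 to 0.10 for Ms4a1, -0.36 to 0.71 for Mzb1 and -0.81 to 0.50 for Tnfrsf13c. For losartan against vehicle they were -0.44 to 0.39 for Cd79b, -1.04 to 0.10 for Ms4a1, -1.08 to 0.23 for Pax5, -0.81 to 0.035 for Blk, -0.040 to 0.60 for Mzb1, -1.78 to 0.69 for Cr2 and -1.11 to 0.46 for Tnfrsf13c. For AngII against losartan it was -0.11 to 1.41 for Cr2. For TRV023 against losartan they were -0.81 to 0.051 for Cd79b, -0.61 to 0.44 for Ms4a1, -0.014 to 0.61 for Cd22, -0.67 to 0.40 for Mzb1 and -0.81 to 1.10 for Tnfrsf13c. Tnfrsf13c and Cr2 had as few as 1 and 0 reads in a library, and the part of read depth in their ranges was not tested.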
